A study of Drosophila melanogaster with 8 samples.

Results

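RNA levels of the R1, I and LOA clade non-LTR retrotransposons were described in Drosophila melanogaster ovaries. Members were chosen by name. The rule listed 8 family names, R1A1, R2, Rt1a, Rt1b and Rt1c for the R1 and R2 clades, I and Ivk for the I clade and baggins for the LOA clade. Of these, 7 were among the 111 transposable element (TE) families of both tables, and R2 was not analysed here. All 7 were above the floor of 3 reads in every sample, so none was lost to a filter on low values. R1-2, an R1 family by its name, was in both tables but not on the list, and was not counted as a member. It had 3 and 2 reads in no-KD and 0 and 1 in piwi-sKD. In the double knockdowns it had 1 and 4 reads in the control and 2 and 6 with the second hairpin against Dcr2. Statements about the members do not cover it.

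Many, but not all, non-LTR retrotransposons are transcribed from a promoter inside their own 5′ end. Non-LTR retrotransposons encode an endonuclease and a reverse transcriptase, which copies the RNA directly onto the cut chromosome. R1 elements are known for inserting at a fixed site in the rRNA genes, where a copy interrupts the transcription unit. The I element is the agent of the I-R system of hybrid dysgenesis, in which female sterility follows when I is mobilised in the germline of daughters of I fathers and mothers without active I. In ovaries such elements are normally held down by Piwi-interacting RNAs (piRNAs), short guides carried by Piwi and its relatives.

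The samples were ovaries of 4 groups of flies, with 2 biological replicates in each. All 4 groups carried tj-GAL4, which drives a hairpin against piwi (sh-piwi) in the follicle cells that enclose the germline, and a thermosensitive GAL80 (tubP-GAL80[ts]) that holds GAL4 back at low temperature. One line, w with tj-GAL4 and tubP-GAL80[ts] sh-piwi on separate chromosomes, gave both no-KD, kept at 20°C throughout, and piwi-sKD, which spent its last 5 days at 25°C. The double knockdowns carried tj-GAL4 and the GAL80[ts] sh-piwi chromosome in 1 copy each, and their labels also give 5 days at 25°C. Their second hairpin was sh-w, against white, in piwi-sKD,ctrl-sKD and sh-dcr2 in piwi-sKD,dcr2-sKD. Dcr2 makes short interfering RNAs (siRNAs), a second class of small RNA that acts on TEs. The piwi-sKD against no-KD comparison asks what loss of Piwi in the soma does, and temperature and knockdown cannot be told apart in it. The paper ran a separate RT-qPCR control with a GAL80 that is not thermosensitive. It reports that no TE tested there rose after the shift. Whether members were among those TEs is not given in the sources used here. The comparison of the double knockdowns asks what Dcr2 adds when Piwi is already depleted.

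Each library pooled the ovaries of many females and held germline and follicle cells together, so fewer cells of a type and less RNA per cell cannot be told apart. The RNAs of piwi and Dcr2 and the marker genes of follicle cells and germline were not analysed here. Neither the knockdown nor the make-up of the tissue was thus checked in these libraries. The paper reports the depletion of Piwi and Dcr2 in the double knockdown from immunofluorescence. Reads assigned to TEs ran from 78807 to 343458 per sample, and those of the 7 families from 1639 to 3178. The deposited values are read counts per family divided by a size factor of the sample (normalised counts), and size factors lay between 0.927 and 1.13. At 3 reads the floor was 2.66 to 3.23 normalised counts. The shallowest member was baggins, with 26 reads in no-KD replicate 1 (95% exact Poisson interval 17.0 to 38.1), then Rt1a with 27. Intervals and floors cover counting error only.

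The 7 families differ in how many copies the reference genome holds and where these lie. In the BDGP6.54 annotation they made 241 insertions, of which 143 lay outside annotated genes, 80 in introns and 18 over an exon. Lengths given here leave out shorter TEs nested inside a copy. R1A1 had 31 insertions, 15 of them on chromosome X, and 7 were at least 4 kb long. All 7 long copies lay outside genes, such as chr3L:23112594-23117891 and chrX:23234385-23239717. A single R1A1 copy, of 3655 bases at chrX:23271159-23274813, was within 10 kb of an annotated rRNA gene, 3194 bases away. The annotation lists 115 rRNA genes, and the long rRNA arrays of heterochromatin are largely missing from assemblies, so this count is a lower limit on R1A1 copies beside rRNA genes.

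Rt1a had 30 insertions, and 11 were at least 4 kb long, the most of the 7 families. Its longest copy of 5193 bases, at chr3L:1424822-1430014, overlapped an exon of Ptp61F, a protein tyrosine phosphatase gene. Rt1b was the most numerous, with 60 insertions. Of those, 25 were intronic and 0 were exonic, and the longest (5195 bases, chr3L:13574910-13580104) sat in an intron of bru3, which encodes an RNA-binding protein. Rt1c had 33 insertions, 16 of them on X, and none reached 4 kb without nested TEs (longest 3723 bases, 6169 with them). I had 38 insertions with 9 long copies, among them chr3L:21365893-21371264 outside genes. Ivk was the rarest with 13 insertions, 5 of them long, one of these (chr3L:22761446-22766814) in an intron of SPoCk, which encodes a calcium pump. The 36 baggins insertions included 4 long ones, the longest (5915 bases, chr3R:1245730-1251644) in an intron of Myo81F, a myosin gene. Which of these copies the reads came from was not tested.

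**Figure D1:**
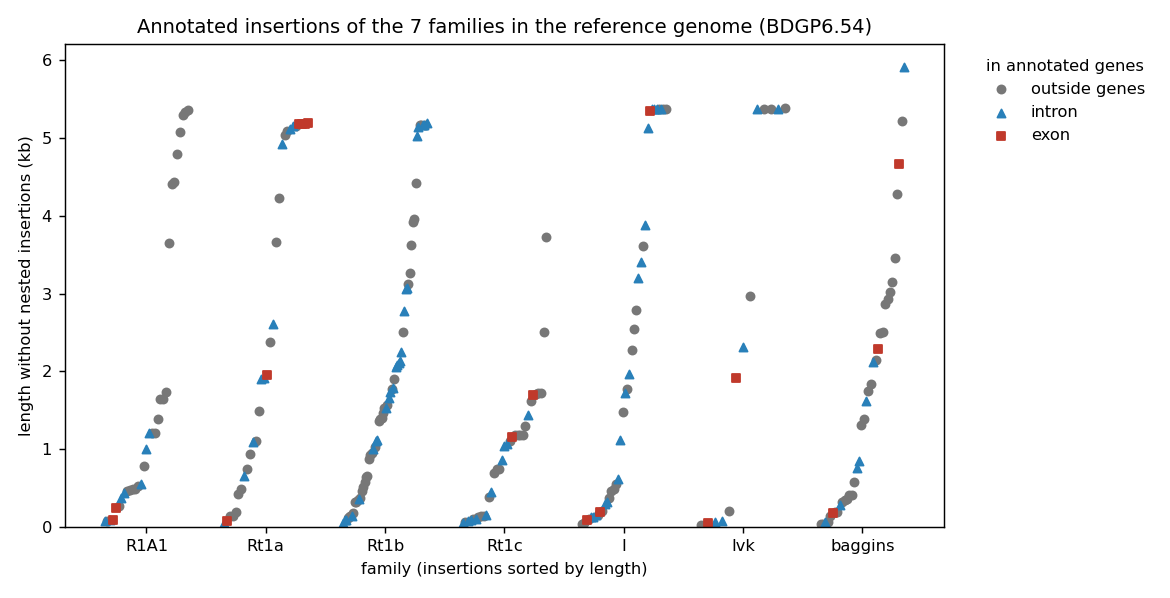
Length in kb of each annotated insertion of the 7 families in BDGP6.54, with shorter TEs nested inside it taken out, sorted by length within a family. Grey circles lie outside genes, blue triangles in introns and red squares over exons; R1A1 has no copy of 4 kb or more in a gene, Rt1c has no copy of 4 kb or more at all, and Ivk has only 13 insertions.

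On the authors' scale R1A1 changed most of the members in piwi-sKD ovaries, at about 5 times its no-KD level. Rt1a was flat on that scale. Rt1b, Ivk and I rose by 1.34- to 1.51-fold on the authors' scale, close to the median of all families, and turned lower when the summed TE level was made equal or samples were centred on their median. With limma at an adjusted p under 0.05, 4 of the 7 members were higher (R1A1, Rt1b, Ivk and I), against 55.0% of the 109 families tested. None was lower at either an adjusted or an unadjusted p under 0.05, or with precision weights (voom), against 5.5% of all families with limma. R1-2, not a member, was lower with limma at an unadjusted p under 0.05 but not at an adjusted one. Its reads were at or below the floor in these samples. In 6 of the 7, all but Rt1a, both piwi-sKD samples were above both no-KD samples, as in 73.4% of all families. The median log2 fold change was 0.47 over the members and 0.47 over all families. Log2 fold changes are of the normalised count + 1, which understates the change of low families.

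R1A1 had 84.1 and 59.5 normalised counts in the no-KD samples and 354 and 369 in the piwi-sKD samples. The groups were far apart, with means of 71.8 ± 17.4 and 362 ± 10.4 (SD, n = 2). The ratio of the means was 5.04, and the log2 fold change was 2.34 ± 0.19 (SE, 95% interval 1.90 to 2.77), with an adjusted p of 8.28e-06 by limma. It was the only member past 2-fold and ranked 16 of 109 families by log2 fold change. R1A1 stayed higher under every alternative tried, with log2 fold changes of 2.09 to 2.58 when each sample was left out in turn. With all samples kept it also stayed past the threshold. The size of its rise depended on the scale. The log2 fold change was 1.12 with samples centred on their median and 0.98 with the summed TE level made equal.

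Among the Rt1 families, Rt1b read 386 and 347 in no-KD, against 555 and 541 in piwi-sKD. The 2 groups did not overlap, and the ratio of means was 1.49, a log2 fold change of 0.58 ± 0.11 (SE, 95% interval 0.32 to 0.84, limma adjusted p = 0.00257). Rt1a had 29.1 and 28.3 in the no-KD samples against 27.9 and 30.1 in the piwi-sKD samples. Here the groups overlapped, with a ratio of 1.01 and a log2 difference of 0.01 ± 0.24 (SE), whose 95% interval ran from -0.53 to 0.56. Rt1c read 57.1 and 78.7 in no-KD, against 91.9 and 94.7 in piwi-sKD. Its lowest piwi-sKD sample was above its highest no-KD sample, but the spread within no-KD was wide and the log2 difference of 0.47 ± 0.21 (SE, 95% interval -0.01 to 0.95) missed the threshold, with an adjusted p of 0.0860 by limma. Without no-KD replicate 2 the Rt1c difference was 0.70 and passed, with an adjusted p of 0.0190, and without no-KD replicate 1 it was 0.24, with an adjusted p of 0.196.

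In the I clade, Ivk read 584 and 518 in no-KD, against 843 and 819 in piwi-sKD. The groups were well apart, with a ratio of 1.51 and a log2 fold change of 0.59 ± 0.11 (SE, 95% interval 0.34 to 0.84, limma adjusted p = 0.00172). The I element itself read 719 and 595 in no-KD, against 838 and 924 in piwi-sKD. Both piwi-sKD samples were higher, at a ratio of 1.34 and a log2 fold change of 0.43 ± 0.12 (SE, 95% interval 0.14 to 0.71, limma adjusted p = 0.0163). This call rested on single samples. It was lost without no-KD replicate 2 (0.29, adjusted p = 0.132) and without piwi-sKD replicate 2 (0.36, adjusted p = 0.0574). For baggins, of the LOA clade, the values were 28.0 and 27.2 in no-KD, against 32.0 and 35.4 in piwi-sKD. The groups did not overlap, yet the log2 difference of 0.28 ± 0.23 (SE, 95% interval -0.26 to 0.81, limma adjusted p = 0.331) missed the threshold. This SE draws on other families of similar level. Without a variance trend it was 0.12, and the adjusted p by limma was 0.104.

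The direction of these smaller changes depends on the scale. All families together had a median log2 fold change of 0.47, and relative to it R1A1 was 1.87 higher, Ivk 0.12, Rt1b 0.11 and Rt1c 0.00 higher, while I was at -0.04, baggins at -0.19 and Rt1a at -0.46. With that median set to 0, R1A1 was the only member called higher (adjusted p = 4.38e-05 by limma). With summed TE levels made equal, or samples centred on their median log2 value, the other 6 members turned lower and passed the threshold. Of the members, R1A1 alone remained higher. The normalised TE sum itself rose from 86455 and 79523 in no-KD to 198585 and 231108 in piwi-sKD. Either setting lowers all families in piwi-sKD by a nearly common shift. Families called lower went from 6 to 78 with equal sums and to 73 when centred. These turns follow from the scaling and are no result about the members. The size factors of the authors came from genes and TEs together and are the scale used above.

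**Figure D2:**
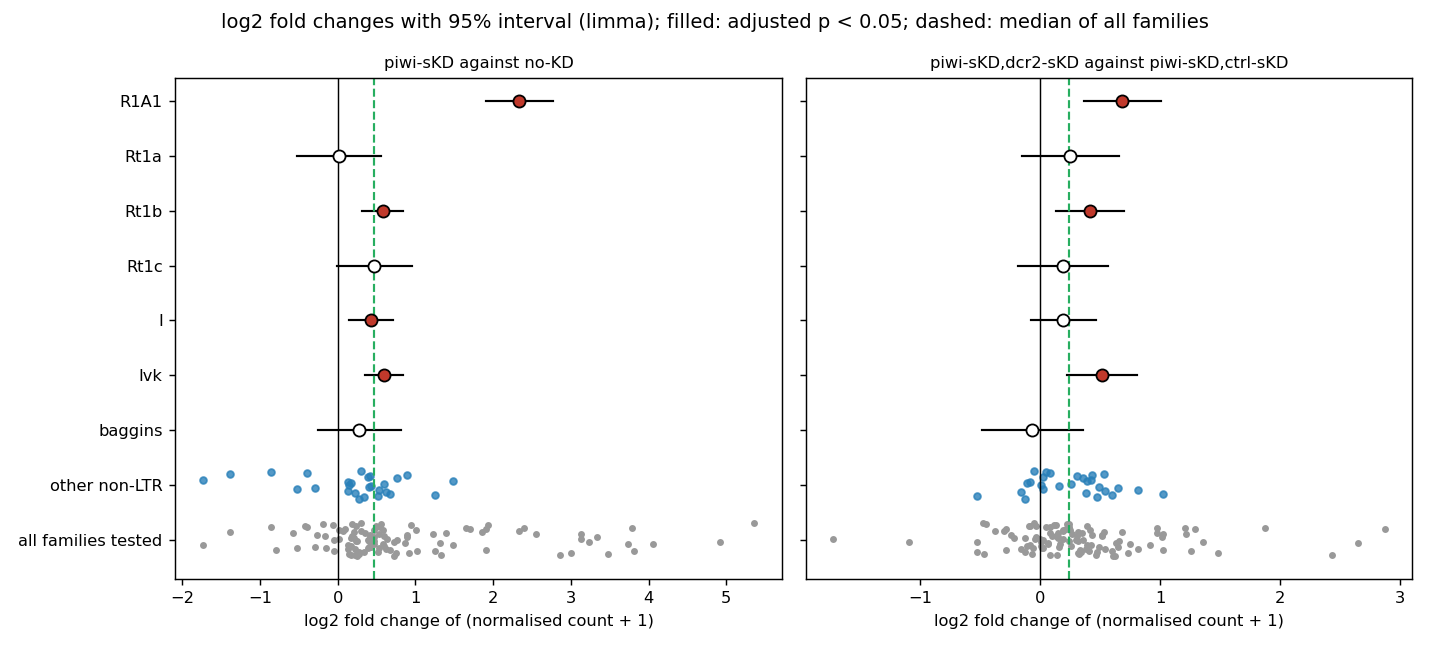
Log2 fold change of each member (circles, with 95% intervals from limma), of the other non-LTR families (blue) and of all families tested (grey), for piwi-sKD against no-KD on the left and piwi-sKD,dcr2-sKD against piwi-sKD,ctrl-sKD on the right. Filled circles passed an adjusted p under 0.05, and the dashed line is the median of all families (0.47 and 0.24). R1A1 is to the right of the line in both panels, and the other members lie on both sides of it. Making the summed TE level equal lowers all families in the treated samples. Every member but R1A1 then changes sign on the left, and R1A1 on the right goes to -0.03.

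The other non-LTR families of the tables gave the setting for these values. Of 27 tested, 10 were higher and 3 lower in piwi-sKD, with a median log2 fold change of 0.34 against 0.47 for the members. Only G6 and Cr1a passed 2-fold among them. G6 read 62.5 and 65.6 in no-KD, against 174 and 187 in piwi-sKD (2.81-fold), and Cr1a rose 2.40-fold, both under the 5.04-fold ratio of R1A1. The next was jockey2 at 1.85-fold. Those called lower were TART-B and TART-A, telomeric retrotransposons, with log2 fold changes of -0.86 and -0.40, and G7 at -1.74, of which G7 was near the floor. No member moved in that direction by this test.

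With Dcr2 depleted as well, R1A1, Ivk and Rt1b were called higher than in the control double knockdown. R1A1 again had the largest ratio, 1.61-fold, and no member reached 2-fold. With each sample left out in turn 0 to 2 members were called higher (0 without piwi-sKD,ctrl-sKD replicate 2), with the median of all families set to 0 only R1A1 was (adjusted p = 0.0261 by limma), and with samples centred on their median or TE sums made equal 0 were. These 3 of 7 stood against 27.3% of the 110 families tested. None was lower with limma at an adjusted or an unadjusted p under 0.05, or with voom weights, against 3.64% of all families with limma. In 5 of the 7, all but Rt1c and baggins, both piwi-sKD,dcr2-sKD samples were above both control samples, as in 54.5% of all families. The members' median log2 fold change was 0.25 and that of all families 0.24. Here limma estimated 1 common spread at each level of expression, so its p-values rest little on the 2 replicates of a family.

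R1A1 read 176 and 159 in the control, against 268 and 270 with Dcr2 depleted. The groups did not overlap, with means of 167 ± 12.5 and 269 ± 1.41 (SD, n = 2). The log2 fold change was 0.68 ± 0.16 (SE, 95% interval 0.36 to 1.01), with an adjusted p of 0.000184 by limma and a rank of 20 of 110. Without piwi-sKD,ctrl-sKD replicate 2 it was 0.61 and missed the threshold, with an adjusted p of 0.0604. It was 0.45 above the median of all families, and it turned to -0.03 when the summed TE level was made equal.

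Ivk read 331 and 312 in the control and 458 and 460 with Dcr2 depleted. The ratio was 1.43 and the log2 fold change 0.51 ± 0.15 (SE, 95% interval 0.22 to 0.81, limma adjusted p = 0.00261). The call was lost without piwi-sKD,ctrl-sKD replicate 2 (0.47, adjusted p = 0.0604) and without either piwi-sKD,dcr2-sKD sample (0.52 and 0.51, adjusted p = 0.111 and 0.109), although the difference hardly moved. Rt1b read 441 and 430 in the control and 638 and 528 with Dcr2 depleted. Both treated samples were higher but they were far from each other, and the ratio was 1.34 with a log2 fold change of 0.41 ± 0.14 (SE, 95% interval 0.13 to 0.70, limma adjusted p = 0.0157). The Rt1b call was lost whichever sample was left out, at 0.43 and 0.40 without control replicates 1 and 2 and at 0.28 and 0.55 without Dcr2-depleted replicates 1 and 2 (adjusted p = 0.101, 0.139, 0.481 and 0.0701). Both families, like R1A1, turned lower when the summed TE level was made equal, and neither passed the threshold with the median of all families set to 0.

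The remaining 4 members gave no call. The I element read 754 and 811 in the control and 926 and 866 with Dcr2 depleted, a ratio of 1.14 and a log2 difference of 0.19 ± 0.14 (SE, 95% interval -0.08 to 0.47, limma adjusted p = 0.305). Rt1a read 72.0 and 68.5 in the control and 86.6 and 81.0 with Dcr2 depleted, a log2 difference of 0.25 ± 0.21 (SE, 95% interval -0.15 to 0.66, limma adjusted p = 0.377). In both families the treated samples were above the controls, but by less than the test could tell from the common spread at their level. Rt1c read 107 and 87.3 in the control and 104 and 117 with Dcr2 depleted, and its groups overlapped (0.19 ± 0.19, 95% interval -0.18 to 0.57, limma adjusted p = 0.479). For baggins the values were 59.1 and 77.0 in the control and 62.4 and 66.5 with Dcr2 depleted. It was the only member with a fitted difference below 0, at -0.07 ± 0.21 (SE, 95% interval -0.49 to 0.36, limma adjusted p = 0.836), and this turned to 0.12 without piwi-sKD,ctrl-sKD replicate 2. An interval of this width leaves room for a change of either sign.

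Of the other 27 non-LTR families, 5 were higher and 0 lower with Dcr2 depleted, again 0 lower at an unadjusted p under 0.05, and their median log2 fold change was 0.30. Doc read 3432 and 3472 in the control and 7119 and 6921 with Dcr2 depleted, a 2.03-fold ratio. F followed at 1.75-fold and Cr1a at 1.52-fold. The R1A1 ratio of 1.61 lay between those of F and Cr1a.

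**Figure D3:**
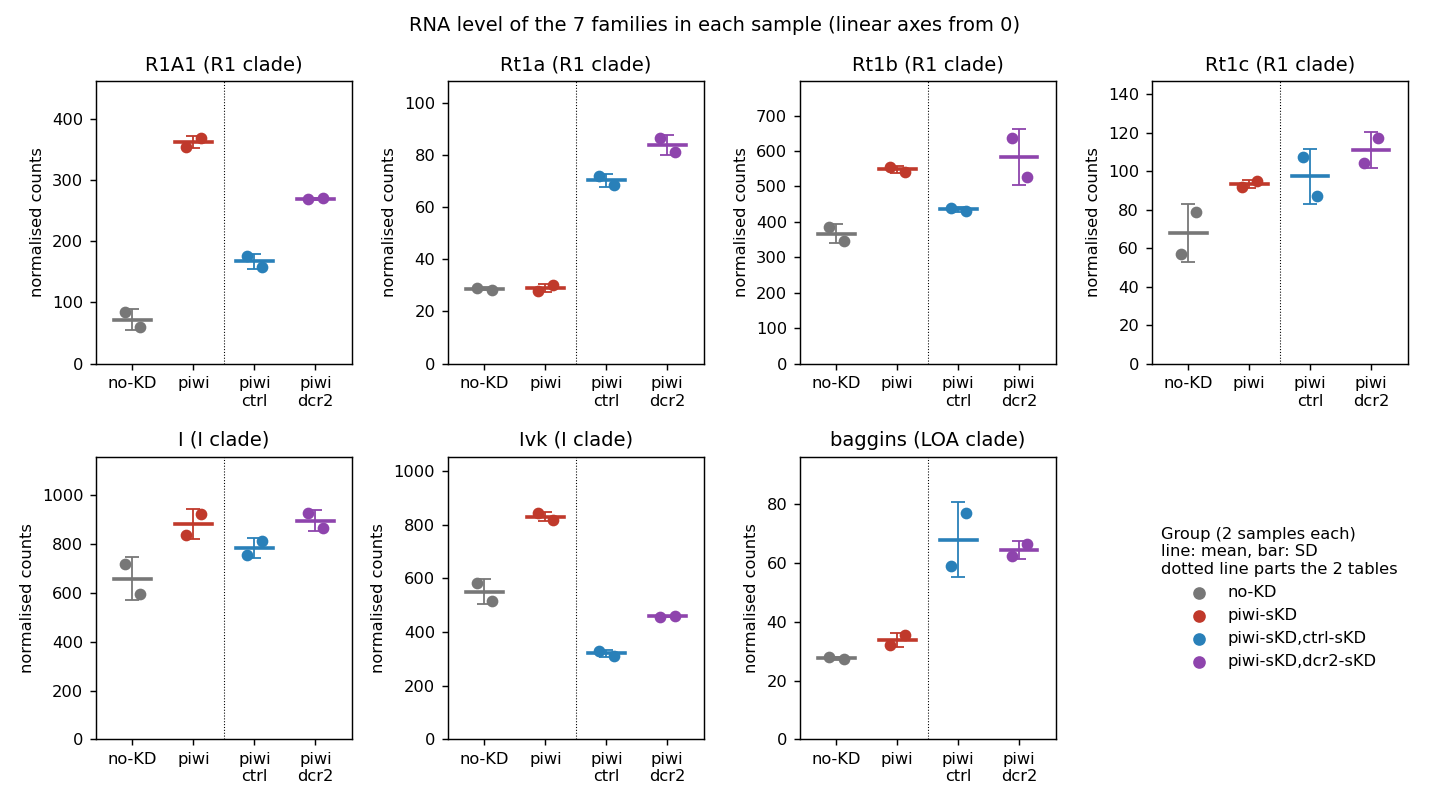
Normalised counts of each member in the 8 samples, on linear axes from 0 that differ between panels, with the group mean (line) and SD (bar, n = 2). The dotted line parts the 2 tables, which have separate size factors; R1A1 goes from 59.5 to 84.1 in no-KD to 354 to 369 in piwi-sKD, and Rt1a and baggins are higher, and Ivk lower, in both double knockdowns than in the first table.

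Levels in the 4 groups can be set side by side only as a description, since the 2 tables were scaled separately and come from different crosses. R1A1 was lowest in no-KD. The control double knockdown came next, then the Dcr2-depleted one and then piwi-sKD, and no neighbours in that order overlapped. The I element ran from no-KD through the control double knockdown and piwi-sKD to the Dcr2-depleted samples, and its last pair overlapped. Rt1b had the same order and the same overlap. Rt1c ran from no-KD to piwi-sKD, the control double knockdown and the Dcr2-depleted samples, and only no-KD was apart from its neighbour.

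The other 3 families differed between the tables, and Ivk also between the groups of each. Rt1a lay at 27.9 to 30.1 in the first table, where its groups overlapped, and at 68.5 to 86.6 in the second. Its mean was 2.42-fold higher in piwi-sKD,ctrl-sKD than in piwi-sKD, and that of baggins was 2.02-fold higher. Ivk went the other way. Its highest double-knockdown sample (460) was below its lowest no-KD sample (518), and piwi-sKD was 2.59-fold above piwi-sKD,ctrl-sKD. R1A1 was 2.16-fold higher in piwi-sKD too. Over the 105 families whose mean reached 10 normalised counts in both tables, the median ratio of piwi-sKD,ctrl-sKD to piwi-sKD was 0.838. The names of the double-knockdown libraries carry a higher temperature than their label, so temperature may also differ between the tables. A size factor changes all families of a sample alike and can only add a common shift. Rt1a and baggins moved opposite to Ivk and R1A1. Genetic background, cross and any such difference in temperature cannot be told apart here.

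Divided by the annotated bases of each family, the levels become normalised counts per annotated kb. The annotated bases include many short copies, so these values are not levels per transcript or per active copy. The copies used by the authors may also differ from this annotation. Copies of R1A1 in rRNA arrays missing from the assembly are not among these bases. Its per-kb level may thus be too high by an unknown amount, and its rank among the families is uncertain. In no-KD, Ivk had 16.0 normalised counts per kb, I 8.0, Rt1b 3.13, Rt1c 2.16, R1A1 1.31, baggins 0.460 and Rt1a 0.371. The 2 I clade families thus led the per-kb levels in no-KD, and they also did so in each of the other 3 groups. On annotated bases R1A1 was below Rt1b and Rt1c in no-KD but above both in piwi-sKD. There it had 6.60 per kb against 4.68 for Rt1b and 2.97 for Rt1c. Ivk was above I in no-KD, in piwi-sKD (24.1 against 10.7) and with Dcr2 depleted as well (13.3 against 10.9). In piwi-sKD,ctrl-sKD the values were 9.52 per kb for I and 9.32 for Ivk, and their SDs of 0.487 and 0.397 (n = 2) were larger than that gap. Rt1a and baggins were the lowest in all 4 groups, at 0.371 to 1.08 and 0.460 to 1.13 per kb.

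The make-up of the members' own reads does not depend on size factors. R1A1 took 4.45% and 3.60% of the reads of the 7 families in no-KD (95% Wilson intervals 3.58% to 5.52% and 2.80% to 4.62%). In piwi-sKD it took 12.9% and 13.1%, with intervals that both lay within 11.7% to 14.3%. The intervals of the 2 groups were far apart, but Wilson intervals cover counting error only and not the spread between replicates. With 2 hairpins the R1A1 shares were 9.08% and 8.16% in the control and 10.5% and 11.3% with Dcr2 depleted, and here the highest control interval (7.84% to 10.5%) met the lowest Dcr2-depleted one (9.45% to 11.8%). Per 100 reads of the other 6 members, the no-KD samples had 4.66 and 3.73 of R1A1 and the piwi-sKD samples 14.8 and 15.1. The control double knockdown had 9.99 and 8.89 and the Dcr2-depleted samples 11.8 and 12.8, so both treated samples were above both controls in either table.

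Among the others, I and Ivk together made up most of the members' reads in the first table, at 30.6% to 38.1% for I and 29.1% to 31.3% for Ivk. In the double knockdowns Ivk fell to between 16.0% and 19.3% and I held 36.2% to 41.7%. Rt1b took 19.2% to 21.0% and then 22.1% to 25.1%. Rt1a went from 1.02% to 1.71% in the first table to 3.39% to 3.71% in the second, and baggins from 1.17% to 1.65% to 2.45% to 3.96%. Of all TE reads, the 7 families together took 2.18% and 2.08% (no-KD) or 1.38% and 1.22% (piwi-sKD) in the first table, where TE reads went from 78807 and 80184 to 192221 and 261136. In the second table they took 1.01% and 1.08% in the control and 0.795% and 0.812% with Dcr2 depleted. The widest of these 95% Wilson intervals was 2.08% to 2.29%. Their share of TE reads was thus lower in the treated samples of both tables although none of the 7 was called lower in normalised counts.

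**Figure D4:**
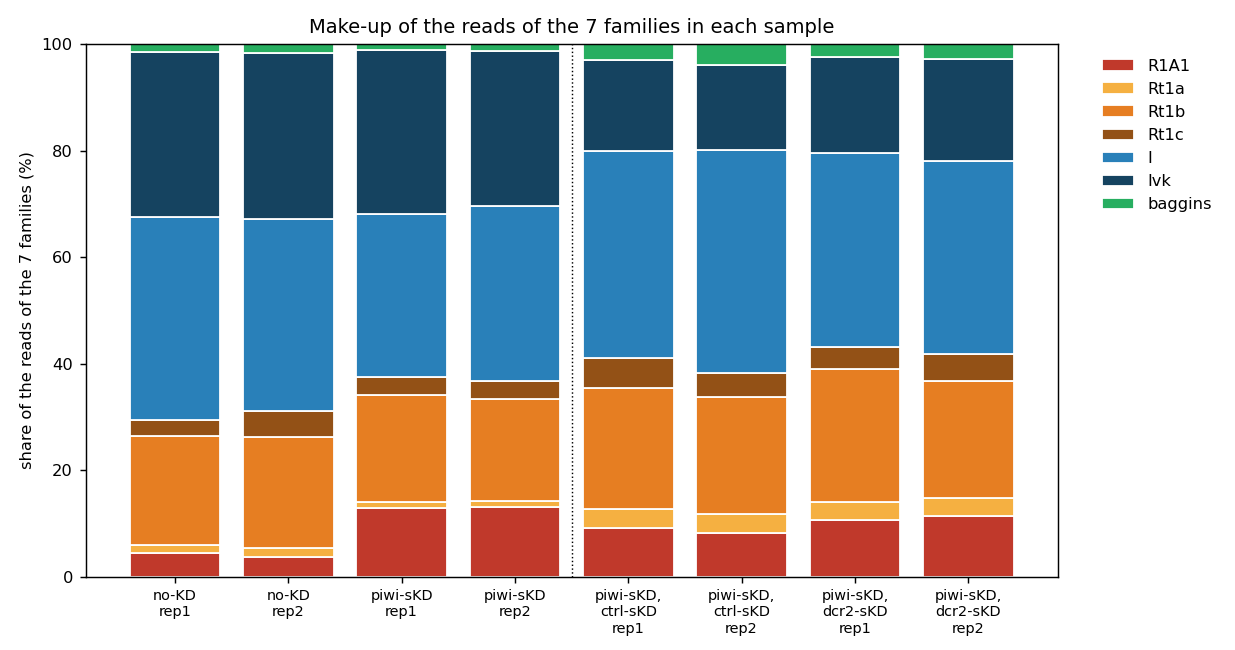
Percent of the reads of the 7 families that each family took, in each of the 8 samples (stacked bars from 0 to 100%). R1A1 (red, at the base) goes from 3.60% and 4.45% in no-KD to 12.9% and 13.1% in piwi-sKD, and Ivk (dark blue) is at 29.1% to 31.3% left of the dotted line and at 16.0% to 19.3% right of it.

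The members varied among themselves in which other families they resembled. Likeness was taken as the root mean square difference (RMS) of log2 values over the 8 samples, each centred on the mean of its table, against 104 candidate families. Rt1b and Ivk were each other's closest family, at an RMS of 0.0798, although they belong to different clades. Rt1b was then closest to Max (0.0812) and G (0.0839), and Ivk to 17.6 (0.0870) and gypsy12 (0.0959). The nearest families to R1A1 were the LTR elements diver2 (0.231), mdg1 (0.238) and Quasimodo (0.249), against its own RMS deviation of 0.871 from its table means. The I element was closest to Max (0.0856), G2 (0.0866) and jockey (0.0885). Rt1a, which hardly moved within a table (own RMS deviation 0.0979), was closest to HMS-Beagle (0.0400), INE-1 (0.0743) and 1360 (0.0821). Rt1c was closest to Hobo (0.105), gypsy9 (0.140) and opus (0.142), and baggins to G5 (0.100), invader5 (0.115) and hopper2 (0.119). Their own RMS deviations were 0.229 for Rt1c and 0.144 for baggins. The matches of Rt1a and baggins are little smaller than, or a large part of, their own small moves, and both had few reads. These values share their libraries and size factors and are a description.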

How the data were processed

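Polyadenylated RNA of pooled ovaries was sequenced as single reads, and all libraries shared a lane by their names. The deposited signal is the number of reads of a TE family divided by a size factor, which the authors estimated with DESeq2 (1.10, per the submitters' processing notes) on genes and TEs together. The authors trimmed reads with UrQt, aligned genes with TopHat2 and counted TEs with TEcount of TEtools against annotated copies. The notes name build dm3, while the paper's methods give FlyBase release r6 gene sequences for these reads; the build of the TE copies is not given in the sources used here. Where a read that fits several families went is not given in the sources used here, so related families may share reads. The I element ends in short repeats and not in a poly(A) tract; what polyA selection did to the members was not tested.

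There are 2 tables of 4 samples and 8 value columns, and 0 columns were left out. Values were whole multiples of a step in 100% of cases, within 0.0001 of a read, which gave the reads. Each table was fitted separately with limma 3.58.1 in R 4.3.3 (lmFit and eBayes, trended variance) on the log2 of the normalised count + 1, Benjamini-Hochberg adjusted over all families above 0 in any sample. The code was tested on simulated data. Insertions came from Ensembl release 115 (BDGP6.54), which may differ from the copies the authors used. All members are named, with the 3 families most like each and up to 3 other non-LTR families per direction among those called. Members and lists were chosen with earlier results of these data known. Alternatives covered the pseudocount (0.5 and 10), a mean minimum of 10, scaling, the variance model, voom weights, the replicate block and each sample left out. The names of the double-knockdown libraries carry a higher temperature than their label, which was followed.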

Additional observations from a re-analysis of the deposited data

How the results depend on the processing

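In piwi-sKD against no-KD the members called higher went from 4 to 1 and those called lower from 0 to 6 both with samples centred on the median and with the TE sum made equal. All families called higher then went from 60 to 22 and 22 and those called lower from 6 to 73 and 78. With the median log2 fold change set to 0, members higher were 1 and families 31 higher and 19 lower. Log2 fold changes when centred, then with equal TE sums, were -1.20 and -1.31 for Rt1a, -0.64 and -0.79 for Rt1b, -0.75 and -0.88 for Rt1c, -0.79 and -0.94 for I, -0.62 and -0.77 for Ivk, and -0.94 and -1.05 for baggins. R1A1 stayed above 0 under the same settings, at 1.12 and 0.98. With the median at 0 the values were -0.46 for Rt1a, -0.043 for I and -0.19 for baggins. Samples left out in turn gave 3 to 4 members higher, 46 to 60 families higher and 3 to 5 lower, and Rt1a ranged from -0.039 to 0.067.

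In piwi-sKD,dcr2-sKD against piwi-sKD,ctrl-sKD, members higher went from 3 to 0 when centred, 0 with equal TE sums and 1 with the median at 0, and members lower from 0 to 5 with equal sums. Families higher went from 30 to 16 and 12, and lower from 4 to 19, 65 and, with the median at 0, 10. Centred values were -0.12 for Rt1a, -0.18 for Rt1c and -0.17 for I. With equal sums they were -0.035 for R1A1, -0.46 for Rt1a, -0.31 for Rt1b, -0.52 for Rt1c, -0.53 for I, -0.21 for Ivk and -0.78 for baggins (limma adjusted p = 0.000811). With the median at 0, Rt1c was -0.048 and I -0.044. Samples left out in turn gave 0 to 2 members higher (0 without piwi-sKD,ctrl-sKD replicate 2), 19 to 26 families higher and 2 to 5 lower, and baggins ranged from -0.25 to 0.12. A lone sample is assumed there to vary like the other group. The cause of these changes was not tested.

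With a replicate block, 3 members were higher in each comparison. I lost its call in the first (adjusted p = 0.0622), families were 53 higher and 5 lower there and 33 and 3 in the second, and no other member call changed. Deviations of same-numbered samples over 105 families correlated at -0.13 in the first and 0.25 in the second; with 2 pairs, and no label that ties the numbers to a batch, the samples were not treated as paired. Crossed pairing in the first gave 4 members, 64 families higher and 8 lower. Without a variance trend I (adjusted p = 0.0566) and, in the second comparison, Rt1b (0.0637) lost their calls. Crossed pairing, voom weights (4 and 3 members higher) and the median set to 0 were chosen after seeing the data, and the planned edgeR fit was not run. Depth limits Rt1a and baggins most.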
